A study of Mus musculus with 23 samples.

Results

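Retnlg, Mmp8, Mmp9, Csf3r, Il1b, Clec4d, Stfa2l1, BC100530 and Stfa1 are genes of the late neutrophil, and they were taken by symbol as 9 of the 23536 gene rows of the series. They were described over every mouse bone marrow cell with at least 1000 transcripts. The cells were measured with CEL-seq, which tags each captured mRNA molecule at its 3′ end before amplification, so the unit is a transcript. Micro-dissected cells came from clumps of a few attached cells, which were taken apart by hand with needles, with 707 of 1546 wells kept in 17 libraries. Sorted haematopoietic stem cells (HSC) were gated as lineage-, Kit+, Sca1+, CD150+, CD48-, with 245 of 369 wells kept in 4 libraries. No strain, age, sex, genotype or treatment is given for either group, nor is it said from which mice the libraries came, so a p-value speaks of the spread among libraries, which may be technical. Median depth was 2272 transcripts in a micro-dissected cell and 1926 in a sorted HSC, and a library held 9032 to 313488 and 3119 to 238770 transcripts in these groups. The label of the sorted cells was checked against its markers: the transcript of Hlf, a stem cell transcription factor, had a median over libraries of 4.62 CPM (transcripts scaled to a library total of 1000000) in micro-dissected and 746 CPM in sorted HSC libraries, and that of Cd48 72.3 and 0 CPM.

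Neutrophils fill several kinds of granule one after another as they mature, and the gelatinase granules are among the last to form before the cell leaves the marrow. Mmp9 (gelatinase B) and Mmp8 (neutrophil collagenase) are secreted metalloproteinases that cut collagens and gelatin. Retnlg encodes a resistin-like protein made by granulocytes. Csf3r is the receptor for G-CSF, the growth factor that drives neutrophil production, and Il1b encodes the inflammatory cytokine interleukin 1 beta. Clec4d is a C-type lectin receptor of myeloid cells that pairs with the adaptor encoded by Fcer1g. Stfa1, Stfa2l1 and BC100530 encode stefins, intracellular inhibitors of cysteine proteases such as cathepsins, and belong to a family that has expanded in the mouse.

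All 9 genes are protein coding in GENCODE vM21, on the mm10 build. Retnlg lies at chr16:48872621-48874496 on the plus strand, Mmp8 at chr9:7558456-7568485 (plus), Mmp9 at chr2:164940780-164955850 (plus) and Csf3r at chr4:126024550-126044440 (plus). Il1b lies at chr2:129364570-129371139 on the minus strand and Clec4d at chr6:123262111-123275265 (plus). The stefins are neighbours: Stfa2l1 lies at chr16:36156811-36161953 (plus), Stfa1 at chr16:36276951-36285373 (plus) and BC100530 at chr16:36359382-36367748 (minus), within a run of 9 stefin genes. RefSeq promoters (GRCm38.p6) matched 8 of the 9 genes, BC100530 by its coordinates under the newer symbol Cstdc5, and Mmp9 had no entry. The 250 bases before the RefSeq transcription start are shown for Retnlg and Mmp8, whose levels moved together over cells. They are also shown for the stefins, whose sequences are so alike that their reads may be hard to separate. Capitals mark the letters TTGCNNAA (written for C/EBP factors) and GAGGAA (for PU.1) on either strand.
Retnlg (chr16:48872358-48872607, plus): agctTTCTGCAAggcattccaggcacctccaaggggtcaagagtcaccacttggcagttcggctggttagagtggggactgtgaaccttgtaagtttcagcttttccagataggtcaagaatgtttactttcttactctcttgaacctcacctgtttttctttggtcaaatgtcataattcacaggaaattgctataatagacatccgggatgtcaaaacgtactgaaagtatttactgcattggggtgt
Mmp8 (chr9:7558179-7558428, plus): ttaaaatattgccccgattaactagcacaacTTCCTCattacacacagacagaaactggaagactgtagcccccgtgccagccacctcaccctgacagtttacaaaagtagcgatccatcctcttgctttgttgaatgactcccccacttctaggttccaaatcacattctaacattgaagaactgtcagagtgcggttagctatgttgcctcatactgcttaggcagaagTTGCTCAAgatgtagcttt
Stfa1 (chr16:36276898-36277147, plus): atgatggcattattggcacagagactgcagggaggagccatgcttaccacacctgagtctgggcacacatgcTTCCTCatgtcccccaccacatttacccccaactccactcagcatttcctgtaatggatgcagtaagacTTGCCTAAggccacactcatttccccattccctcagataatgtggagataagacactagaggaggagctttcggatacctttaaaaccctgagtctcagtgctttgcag
BC100530 (chr16:36367571-36367820, minus): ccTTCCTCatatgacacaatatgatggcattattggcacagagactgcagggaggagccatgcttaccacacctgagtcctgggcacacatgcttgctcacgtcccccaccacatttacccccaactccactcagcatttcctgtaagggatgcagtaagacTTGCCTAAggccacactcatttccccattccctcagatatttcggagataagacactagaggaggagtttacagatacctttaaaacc
Stfa2l1 (chr16:36156561-36156810, plus): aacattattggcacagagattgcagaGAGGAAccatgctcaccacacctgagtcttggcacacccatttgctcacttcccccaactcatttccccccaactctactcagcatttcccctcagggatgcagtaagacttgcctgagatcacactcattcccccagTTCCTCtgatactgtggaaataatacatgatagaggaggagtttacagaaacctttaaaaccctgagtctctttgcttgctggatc

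The C/EBP letters stood in 4 of the 8 promoters, with bases counted back from the RefSeq transcription start. They stood at base -246 of Retnlg and base -19 of Mmp8, and as TTGCCTAA at base -109 of Stfa1 and base -88 of BC100530. GENCODE places the starts of Csf3r, Stfa1 and BC100530 within these windows. By the GENCODE positions above, both TTGCCTAA matches therefore lie inside the genes and not before them. Over 32536 RefSeq promoters of the same length, 9.57% held these letters and 23.4% held GAGGAA, which stood in 6 of the 8. The AP-1 letters TGANTCA were searched as well and were found in none of the 8, against 6.73% of all promoters. The promoters of Stfa1 and BC100530, which hold TTGCCTAA alike, were identical at 81.2% of alignment positions, gaps counted (220 identical bases). That of Stfa2l1, which does not hold it, was identical at 80.9% with Stfa1 (208 bases) and 70.1% with BC100530 (195 bases). Gaps lower these shares, also where the windows are offset against each other, so the shares do not rank the pairs by likeness. These matches are letters in a window and describe no binding.

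The likeness also bears on counting. The last 300 bases of the Stfa1 and BC100530 transcripts were identical at 98.7% of aligned bases. Of the windows of 50 bases in that stretch, 51% of those of Stfa1, 62.2% of those of BC100530 and 24.3% of those of Stfa2l1 also stood in another stefin gene. The counts of these 3 genes are therefore uncertain, since the authors' counting could have split shared reads.

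Between the groups, the metalloproteinases and Retnlg differed by the largest folds of the 4 genes tested. Retnlg ran from 31.8 CPM through a median of 663 to 5322 CPM over the 17 micro-dissected libraries, and was 0, 12.6, 0 and 0 CPM in the 4 sorted HSC libraries. Every micro-dissected library lay above every sorted one, although the micro-dissected libraries differed widely among themselves. The share of all genes that separate the groups in this way was not counted, here or for Csf3r below. By edgeR's quasi-likelihood test the log2 fold change was 7.73 ± 1.93 (approximate SE; adjusted p = 0.00478). All 3 sorted Retnlg transcripts were in sorted HSC replicate 3, and without that library the fit gave 10.38 ± 3.14 (edgeR, adjusted p = 0.0280). No sorted Retnlg transcript was then left, so the size of that fold has no measured sorted level under it and is not read. Mmp8 ran from 0 through 327 to 1023 CPM in micro-dissected libraries, and no Mmp8 transcript was found in sorted HSC. Against a floor of 3 transcripts over the sorted group, the pooled level was at least 76.8-fold higher (edgeR, adjusted p = 0.00647). Mmp9 ran from 0 through 187 to 1014 CPM in micro-dissected libraries, against 0, 4.2, 0 and 0 CPM in sorted HSC libraries. Its log2 fold change was 6.95 ± 1.52 (edgeR, adjusted p = 0.00151). Sorted HSC replicate 3 held the 1 sorted Mmp9 transcript, and the fold of 8.43 without that library likewise has no measured sorted level. For both proteases 15 of 17 micro-dissected libraries lay above all sorted ones, and the 2 libraries at 0, replicates 1 and 6, had 6 kept cells each.

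Csf3r, the receptor gene, differed by a smaller fold. It ran from 58.5 CPM through 140 to 451 CPM in micro-dissected libraries, against 0, 50.4, 42.8 and 55.6 CPM in sorted HSC libraries. The groups did not overlap, but the lowest micro-dissected library and the highest sorted one lay close together, and the sorted library at 0 held 2 cells. The log2 fold change was 1.89 ± 0.49 (edgeR, adjusted p = 0.00285), and with cells of at least 2000 transcripts it was 1.5 ± 0.55 (adjusted p = 0.0518). The filter on low counts left 4 of the 9 genes, which passed it through the group where they are high, and all 4 were higher in micro-dissected libraries. Of all 3639 genes tested, 30.4% were called and 19.2% were called higher. The called genes split into 698 higher and 408 lower, while scaling to library totals called 36.1% of genes, 558 higher and 754 lower and moved the median of all tested genes to -0.17, against 0.16 on the log2 scale.

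**Figure D1:**
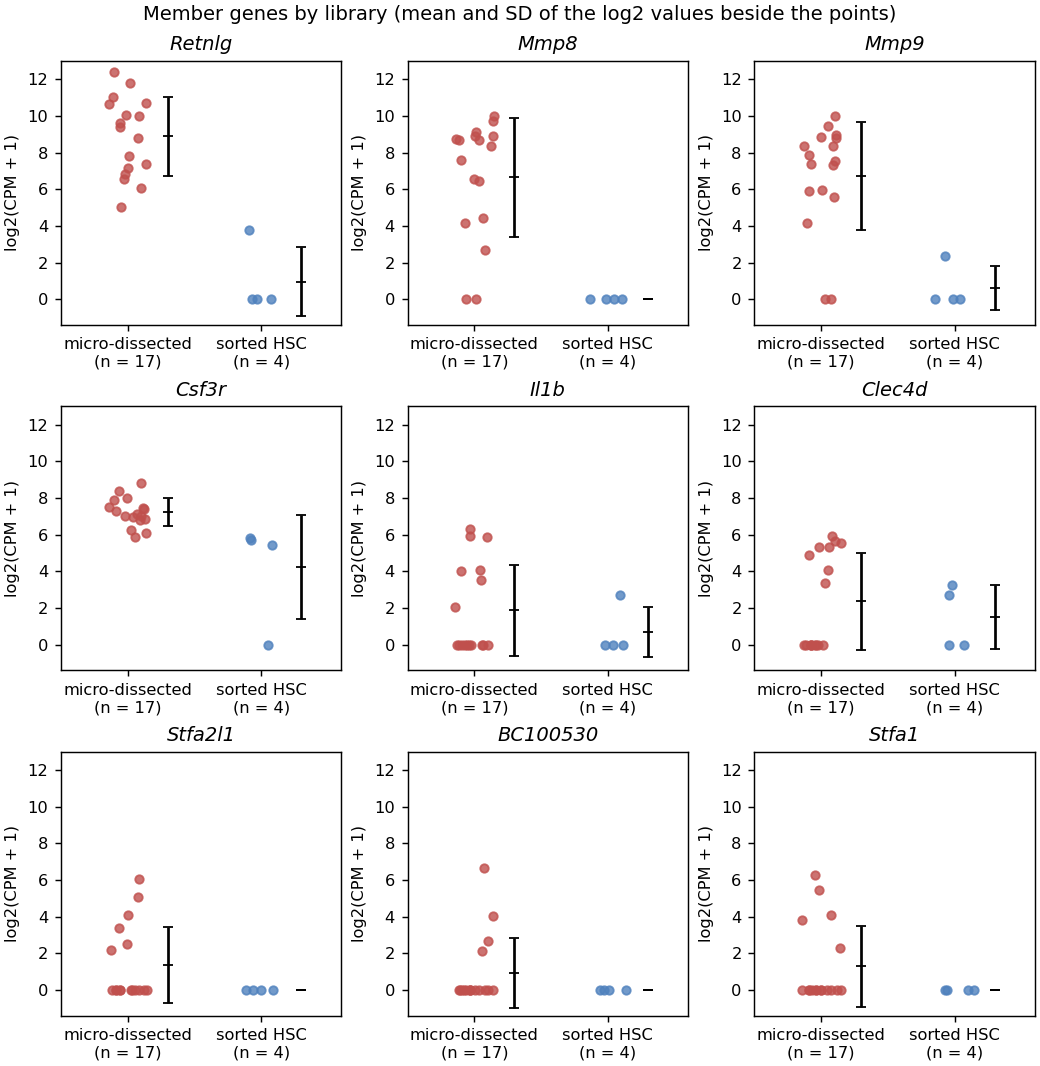
Level of each gene as log2(CPM + 1) in each of 17 micro-dissected and 4 sorted HSC libraries, with the mean and SD of the log2 values beside the points. Retnlg and Csf3r separate the groups in every library (the share of all genes that do so was not counted), whereas Il1b, Clec4d and the stefins are at 0 in most libraries.

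The other 5 genes were too sparse for the test. Il1b had 51 transcripts in 19 of 707 micro-dissected cells, against 1 transcript in 245 sorted HSC, a ratio of pooled levels of 11.1 (95% counting interval 1.90 to 447). Clec4d had 65 transcripts in 38 cells, against 2 in sorted HSC, a ratio of 7.09 (1.88 to 59.6). Both intervals are wide, because they rest on 1 and 2 sorted transcripts. Stfa2l1 had 31 transcripts in 14 micro-dissected cells, BC100530 had 27 in 5 cells and Stfa1 had 25 in 10 cells, and none of the 3 had a transcript in 245 sorted HSC, which allows up to 1.22% of such cells to have a transcript at this depth (a floor of 3 cells in 245) and sets no limit on cells that express the gene. Their pooled levels were at least 2.26-fold, 1.95-fold and 1.83-fold higher in micro-dissected cells. Single cells carried much of these totals: 1 cell of replicate 9 held 81.4% of the BC100530 transcripts, 1 cell of replicate 15 held 40.9% of those of Il1b, and 1 of replicate 4 held 36.3% of those of Stfa1.

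By cell, 386 of 707 micro-dissected cells (54.6%, exact 95% interval 50.8 to 58.3) and 32 of 245 sorted HSC (13.1%, 9.11 to 17.9) had a transcript of any of the 9 genes. With every cell thinned to 1000 tags, which left out 26 micro-dissected cells and 0 sorted HSC, the shares were 37.2% and 7.76%. Of these 32 sorted HSC, 25 had Csf3r, which was found in 28% of micro-dissected cells and 10.2% of sorted HSC. Retnlg was found in 31.4% of micro-dissected cells and 1.22% of sorted HSC. In a summed library, fewer expressing cells and less RNA per cell cannot be told apart. No sorted HSC had more than 1 of the 9 genes, while 66 micro-dissected cells had at least 4, of which 2 had 7.

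The micro-dissected cells were grouped by expression with the 9 genes left out, and a cluster was called by a cell type only where marker genes led it. A class of 91 cells from 11 libraries, led by S100a6, Fpr2, Fpr1 and C5ar1, was mature neutrophil-like, and its median depth was 1559 transcripts. It held 73.9% of all transcripts of the 9 genes, which made up 2.48% of the class's transcripts. By library the share varied widely, with a mean of 54.4% ± 34.6 (SD, n = 13 libraries with at least 20 such transcripts) and a range of 0% to 89.4%. Clustering with 1000 in place of 2000 variable genes gave 51.6%.

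Within that class Retnlg was at 14681 CPM, and it ranged from 4354 to 27085 CPM over the 8 libraries with at least 5 of its cells. Mmp8 was at 4791 CPM (2698 to 8518) and Mmp9 at 3868 CPM, and 89% and 94.5% of the 91 cells had a transcript of each. Csf3r was at 707 CPM (341 to 1689) in the class. The class held 75.0% of Retnlg, 81.8% of Mmp8 and 79.7% of Mmp9 transcripts, but 32% of Csf3r transcripts. It also held 88.2% of Il1b and 90.4% of Stfa2l1 transcripts, 53.8% of those of Clec4d and 32% of those of Stfa1. Most transcripts of 7 of the 9 genes thus lay in this class, and most of those of Csf3r and Stfa1 did not. The count depends on the clustering: with 1000 variable genes the mature class, then 49 cells, held 44.6% of Clec4d and 50.1% of Mmp8 transcripts. Among cells with at least 2000 transcripts it held 25% of Il1b and 12.1% of Clec4d transcripts and no BC100530.

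In erythroblast-like cells, which are not known to make granule proteases, Retnlg was found in 32 of 236 (13.6%), Mmp8 in 16 (6.78%) and Csf3r in 14 (5.93%), at 54.2, 24.2 and 22.8 CPM and a median depth of 1779. Shares at or near these in other classes are read as background. In sorted HSC, Csf3r was at 50.2 CPM with a median depth of 1926, and after thinning it was found in 2.29% of erythroblast-like cells and 6.53% of sorted HSC.

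**Figure D2:**
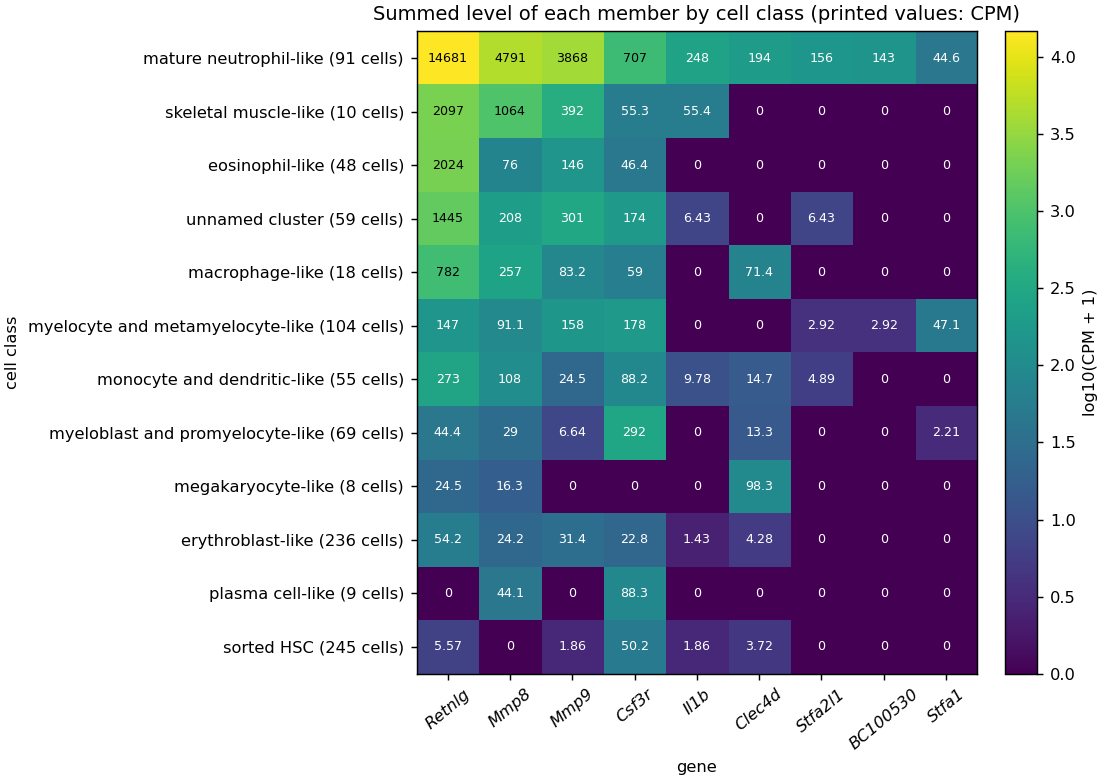
Summed level of each gene in 11 classes of micro-dissected cells and in sorted HSC, with colour for log10(CPM + 1) and the CPM printed. The mature neutrophil-like row is highest for Retnlg (14681 CPM) through BC100530, Csf3r is also present in myeloblast and promyelocyte-like cells (292 CPM), and Stfa1 is near equal in the mature and myelocyte classes.

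Finer clusters (Leiden resolution 2) split the neutrophil cells further, and 5 of them are given here in an order chosen from their leading genes. No ordering of cells was computed, and the place of the unnamed clusters in this order was not tested. They were 42 promyelocyte-like cells led by Ctsg, Mpo and Prtn3, 31 cells of an unnamed cluster led by Fcnb, 89 myelocyte and metamyelocyte-like cells with Ngp, Ltf and Camp, 45 cells of an unnamed cluster led by AA467197, Ifitm6 and Fpr2, and 55 mature neutrophil-like cells. The proteases and Retnlg were high in the AA467197-led cluster as well as in the mature one. Mmp8 was at 6.84, 61.3, 33.6, 2805 and 6333 CPM in these 5 clusters, and Mmp9 at 0, 16.5, 108, 1942 and 5544 CPM. Retnlg was at 24, 71.9, 84.1, 2650 and 25889 CPM, so that its level in the mature cluster was 9.77 times that in the AA467197-led one, compared with 2.26 times for Mmp8 and 2.85 times for Mmp9. Between the preceding pair of this chosen order, the AA467197-led level was 31.5 times the myelocyte-like one for Retnlg, 83.4 times for Mmp8 and 18 times for Mmp9. The counting intervals of the myelocyte-like levels were 54.5 to 124, 16.1 to 61.8 and 74 to 152 CPM. Erythroblast-like cells, read above as background, were at 54.2, 24.2 and 31.4 CPM. The Retnlg and Mmp8 folds thus rest on levels near background, and their size is uncertain. The mature and the AA467197-led cluster each had 5 libraries with at least 5 of its cells. These were picked for each cluster on its own, so the ranges are not paired by library. Retnlg did not overlap (23399 to 27428 CPM in the mature cluster, against 391 to 4723 CPM in the AA467197-led one). Mmp9 did not either (3611 to 10060 CPM, against 743 to 3322 CPM in the same order), nor did Mmp8, though its ranges nearly met (5504 to 9437 CPM, against 1429 to 5470 CPM). The share of all genes that separate these clusters in this way was not counted. The clusters were cut from the expression of other genes, some of which vary with these, so the ranges are a description and no test.

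Csf3r followed another course. Its level was 303, 271, 172, 139 and 1246 CPM over the same clusters, with counting intervals of 244 to 373 CPM in the promyelocyte-like cells and 77.8 to 229 CPM in the AA467197-led cluster. Libraries with at least 5 cells ran from 102 to 320 CPM in promyelocyte-like cells, 109 to 493 CPM in myelocyte-like cells, 0 to 494 CPM in the AA467197-led cluster and 325 to 1689 CPM in mature cells. The first 3 of these ranges overlap, so the differences among these clusters are within the spread of libraries. The mature range begins just above the promyelocyte-like one and overlaps the other two. A Csf3r transcript was found in 32 of 42 promyelocyte-like and 42 of 55 mature cells, whose median depths were 5673 and 1369.

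Il1b and Clec4d were highest at the end of this order. Il1b had no transcript in the first 3 clusters, 1 in the AA467197-led cluster and 43.9 in the mature one, where 13 of 55 cells had it at 477 CPM (counting interval 346 to 640) and the cell of replicate 15 held 20.8 of the transcripts. Clec4d had 33.1 transcripts in the mature cluster (359 CPM) and 2 in the AA467197-led one (18.5 CPM). Earlier in the order it had 5.02 transcripts in 3 promyelocyte-like cells (17.1 CPM), 1 in the Fcnb-led cluster and none in the myelocyte-like one. Clec4d was also found in 5 of 8 megakaryocyte-like cells, at 98.3 CPM, in the class with the deepest median, 10272 transcripts, while Mmp9 and Csf3r had no transcript in those 8 cells.

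**Figure D3:**
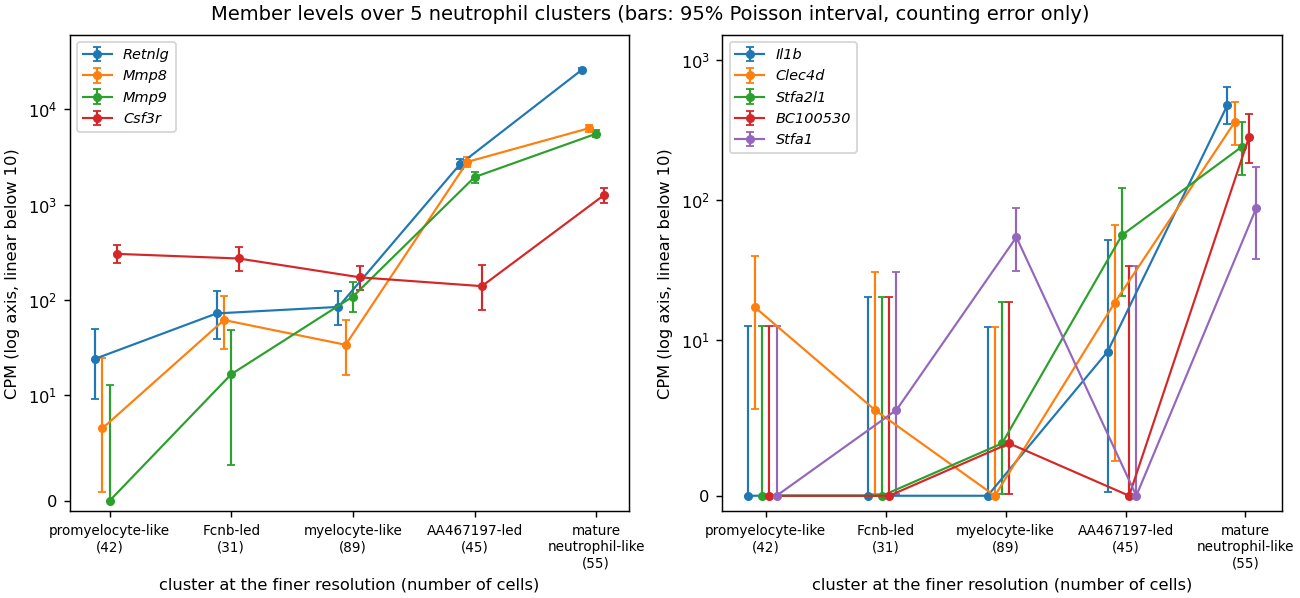
Summed CPM of each gene on a log axis (linear below 10) in 5 finer neutrophil clusters, with exact 95% Poisson intervals for counting error. The order of the clusters was chosen from their leading genes and not computed. By fold, Mmp8, Mmp9 and Retnlg climb most between the myelocyte-like and AA467197-led clusters. For Retnlg and Mmp8 the myelocyte-like level is near that of erythroblast-like cells. Retnlg climbs again (9.77 times) to the mature cluster, Il1b and Clec4d climb between the last pair, and Csf3r stays between 139 and 303 CPM until the mature cluster.

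The stefins were for the most part found in different cells. With 14, 10 and 5 cells for Stfa2l1, Stfa1 and BC100530, most of them holding few transcripts, few shared cells could be seen at this depth. Whether cells use 1 stefin and not another was not tested, and the shared reads described above make these counts uncertain. All 14 cells with Stfa2l1 also had Retnlg, and 11 of the 14 were mature neutrophil-like. Of the 10 cells with Stfa1, by contrast, 7 were in the myelocyte and metamyelocyte-like class and only 2 had Retnlg. Of the 5 cells with BC100530, 4 were mature neutrophil-like, and 1 of these, with 21.9 BC100530 transcripts, also had 81.8 of Retnlg. A single cell had both Stfa1 and BC100530 and a single one both Stfa1 and Stfa2l1. Stfa1 had 16.2 transcripts in the myelocyte class, of which 9.16 were in 1 cell of replicate 4, and 8.07 in the mature class.

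Across the 707 micro-dissected cells, as a description in which cells share libraries and depth, per-cell levels of Mmp8 and Mmp9 had a Pearson r of 0.827, Retnlg and Mmp9 of 0.793, and Retnlg and Mmp8 of 0.776. Retnlg and Csf3r had r = 0.423. Correlations of Stfa1 with the other 8 genes lay between -0.02 and 0.12. Of 8200 genes in at least 20 cells, the 10 most like the summed set were S100a6 (r = 0.715), Fpr2 (0.650), S100a11 (0.611), Fpr1 (0.607), Cd52 (0.587), Slpi (0.582), Ccl6 (0.552), S100a9 (0.548), Tyrobp (0.547) and S100a8 (0.544). S100a6, S100a8, S100a9 and S100a11 encode calcium-binding proteins, and Fpr1 and Fpr2 are receptors for formylated peptides. Of genes that lead the myelocyte class, Lcn2, which encodes a protein of the earlier specific granules, ranked 11 (r = 0.538) and 1100001G20Rik 27. Ngp, Ltf and Camp, also products of earlier granules, ranked 70, 133 and 160, and Elane, of the first granules, 3344.

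A few cells of the eosinophil-like class were high in Retnlg with little Mmp8. Of 48 eosinophil-like cells, a class led by Ear1, Ear6, Prg2 and Epx, 6 from 5 libraries had at least 20 Retnlg transcripts (a limit chosen after the values were seen; 10 gives the same 6 cells). These 6 cells held 331 Retnlg transcripts and 1 of Mmp8. The 55 mature neutrophil-like cells over the same limit held 2510 and 632, and 54 of them had Mmp8. Mmp9 was found in 5 of the 6 cells, with 12.1 transcripts (1221 CPM), against 80.5 CPM in the other 42 cells of the class and 3868 CPM in mature neutrophil-like cells. Median depths were 1479 and 1559 transcripts in these 6 cells and in all 91 cells of the mature class. The 6 cells had S100a8 at 1122 CPM and no Fpr1, Il1b, Clec4d or stefin transcript. Mature neutrophil-like cells had 99612 CPM of S100a8 and 488 CPM of Fpr1, and the other 42 cells had S100a8 at 1457 CPM. By contrast, S100a9, Camp and Ltf were higher in the 6 cells than in the other 42. They were at 3637 against 1719, 610 against 448 and 508 against 241 CPM, where 1 transcript makes 101 CPM in the 6 cells. In mature neutrophil-like cells they were at 100643, 20132 and 11993 CPM. Of the 4 eosinophil genes that lead the class, Ear1 was at 12301 CPM in the 6 cells, against 28221 CPM in the other 42. Ear6 was at 918 CPM, against 18342 CPM. Mature neutrophil-like cells had 173 CPM of Ear1 and 105 CPM of Ear6. Prg2 was at 2782 CPM in the 6 cells, against 87232 CPM in the other 42, and Epx at 101 CPM, against 13525 CPM, with 593 and 83.1 CPM in mature neutrophil-like cells. All 4 genes were thus lower in the 6 cells than in the other 42. Ear1, Ear6 and Prg2 lay above their levels in the mature class, and Epx was near its level there. The eosinophil-like name of the class is thus borne out only in part in these cells. Retnlg was at 117 CPM in the other 42 cells.

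**Figure D4:**
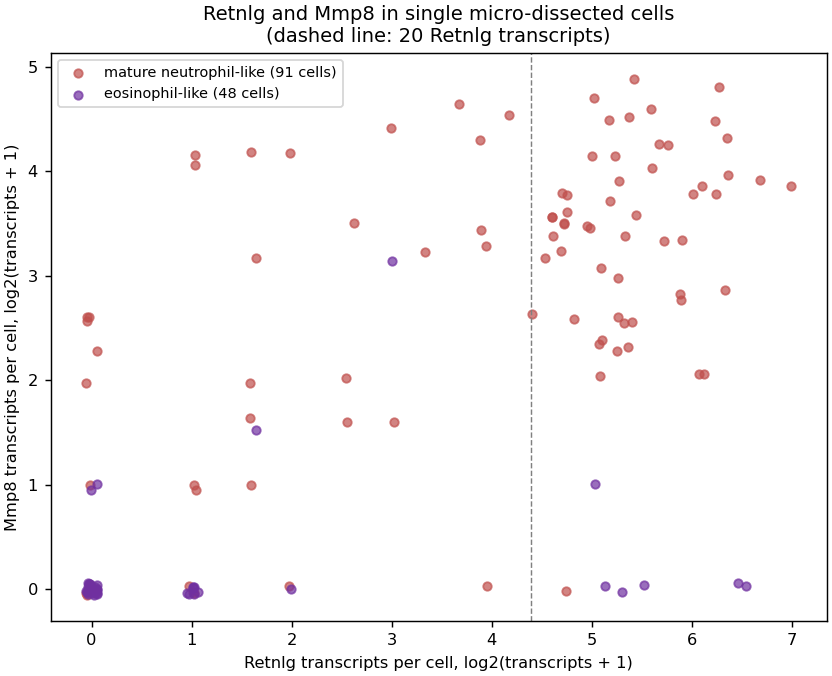
Retnlg and Mmp8 transcripts per cell as log2(transcripts + 1), slightly jittered, in 91 mature neutrophil-like and 48 eosinophil-like cells. Right of the dashed line at 20 Retnlg transcripts, 54 of 55 mature neutrophil-like cells have Mmp8, and 5 of the 6 cells of the eosinophil-like class lie at 0.

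Elsewhere, a small number of cells carried most of a class's value. In macrophage-like cells, 64.5 of 66.5 Retnlg transcripts came from 1 of 18 cells, which also had 20.8 of Mmp8 and 6.07 of Clec4d. In 10 skeletal muscle-like cells, 2 cells held 72 of 76 Retnlg transcripts. An unnamed cluster of 59 cells from 5 libraries had Retnlg at 1445 CPM, of which 3 cells held 178 of 225 transcripts. Whether such wells held more than 1 cell was not tested.

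Cells rich in these transcripts often sat with each other in a clump. Cells with at least 1% of their transcripts from the 9 genes numbered 82, of which 70 were mature neutrophil-like. Of these 82, 54 had another kept cell of their clump, and 30 of the 54 (55.6%) had a rich one. Of 426 other cells with a kept partner, 33 (7.75%) had a rich one. The 14 clumps with at least 2 rich cells came from 6 libraries. Rich cells were unevenly spread, from 0% to 34.6% of the kept cells of a library, and the shares describe the pooled cells and were not tested. With a limit of 2%, 20 of 42 rich cells had a rich partner.

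Wells rich in these transcripts were more frequent among wells with few transcripts in all. Over micro-dissected wells with 250 to 500, 500 to 1000, 1000 to 2000, 2000 to 4000 and over 4000 transcripts, the 9 genes together were at 7141, 7483, 8125, 2661 and 689 CPM. In the same order of depth, rich wells made up 18.9%, 20.7%, 19.9%, 8.21% and 2.06% of the wells. In sorted HSC wells no rich well was found in any of these ranges. The minimum of 1000 transcripts left 81 such micro-dissected wells out of the counts of kept cells.

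The genes around these members in their pathways were read from lists. The member genes are left out of each count, and the median log2 fold change over all 3639 tested genes was 0.16. Of the gelatinase granule and NADPH oxidase list, 9 of 14 genes were tested, and 8 were higher and 0 lower in micro-dissected libraries, with a median of 4.47. Cybb, the catalytic subunit of the oxidase, was at 761 ± 245 CPM in micro-dissected and 1.05 ± 2.10 CPM in sorted HSC libraries (SD, n = 17 and 4; log2 fold change 8.24, edgeR adjusted p = 1.09e-11). Hp (haptoglobin) was at 575 and 1.05 CPM, and Itgb2, a subunit of leukocyte integrins, at 405 and 15.5 CPM. Of the metalloproteinase inhibitors in the list, Timp1 had no transcript in either group. Timp2 was at 66.5 and 57.9 CPM in micro-dissected and sorted HSC libraries (log2 fold change 0.05, not called). Timp3, which was not tested, was at 24.3 and 23.7 CPM.

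Of the receptor list, 10 of 15 genes were tested, and 7 were higher and 0 lower (median 3.07). Ltb4r1, a leukotriene B4 receptor, was at least 38.8-fold higher and Fpr2 at least 34.1-fold higher in micro-dissected libraries, neither having a transcript in sorted HSC. Csf2rb, the common beta chain of the GM-CSF, IL-3 and IL-5 receptors, had a log2 fold change of 2.32 ± 0.48 (edgeR adjusted p = 2.91e-04). Cxcr2, the chemokine receptor of mature neutrophils, did not pass the test (0.60 ± 0.45, edgeR adjusted p = 0.330).

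Of 16 other genes of the G-CSF receptor list, 15 were in the table and 9 were tested, and 3 were higher and 0 lower (median 0.54), or 2 higher with library totals. Of all genes tested 19.2% were called higher, or 15.3% with library totals, so a count of 3 or 2 in 9 is read as no result about the list. The 3 were the transcription factor genes Cebpe, which drives late granule genes (289 ± 116 CPM in micro-dissected and 2.14 ± 4.28 CPM in sorted HSC libraries), Gfi1 (128 and 28.1 CPM) and Cebpb (108 and 21.7 CPM). The kinases Jak1 and Jak2 and the factor Stat3, which relay the receptor's signal, did not pass the test, and Csf3, the ligand, had no transcript in either group. Of the interleukin 1 list, 3 of 15 genes were tested and none was called by edgeR or DESeq2, while library totals gave 1 lower; at an unadjusted p under 0.05, 1 of the 3 passed, Gsdmd, which encodes a pore-forming protein (log2 fold change -1.0, p = 0.0260).

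Of the C-type lectin list, 8 of 15 genes were tested, and 6 were higher and 0 lower (median 5.45). Tyrobp (997 and 6.67 CPM in micro-dissected and sorted HSC libraries) and Fcer1g (529 and 36.2 CPM) encode adaptors, and Clec12a (454 and 1.39 CPM) an inhibitory lectin receptor. Of 10 other stefins and cystatins, 3 were tested and 1 was higher, Cst7 (79 and 1.05 CPM), the gene of cystatin F. Of 8 cathepsins, 6 were tested and 4 were higher (median 2.0), or 3 with library totals, among them Ctsb (905 and 125 CPM), Ctsz (143 and 52.3 CPM) and Ctsh (143 and 12.3 CPM). Of 3 other resistin family genes none was tested: Retn had no transcript, Retnla 3 and Retnlb 1. These lists hold genes of many myeloid cells, and in a comparison of mixed marrow cells with stem cells the part of each cell type in them was not tested.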

How the data were processed

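Single cells were measured with CEL-seq in 18 micro-dissected and 5 sorted HSC libraries. The submitters' processing notes name BWA 0.6.2-r126 and the mm10 build. For the annotation, read filters and counting rules, nothing is given in the sources used here. A deposited table of the series holds the authors' estimated transcript counts (expected counts), corrected for tags drawn more than once, for 17 micro-dissected and 4 sorted libraries, and 0 of its columns belong to no sample or share a name. Micro-dissected replicate 18 entered only through the authors' per-library files, whose values are estimated counts of the same kind, while replicate 2 of the sorted HSC is not analysed here.

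The 9 genes, the gene lists, the cell type markers and the tests were chosen with earlier results of these data known. Cells with at least 1000 transcripts were kept, with no doublet calling, as wells were filled one by one by hand or by the sorter. Counts were summed per library and rounded to whole numbers, and tested with edgeR 4.0.16 (TMM factors, filterByExpr, quasi-likelihood fit of all 21 libraries, no covariate) in R 4.3.3, calling genes at a Benjamini-Hochberg adjusted p of 0.05. The SE is approximate, namely the log2 fold change divided by the root of the F statistic. Tested on simulated counts for this comparison over 3404 genes, the fit called 97.5% of 80 genes changed by 4 on the log2 scale, 26.1% of 92 changed by 2 and 2 of 3232 unchanged ones. The simulation gave every gene the same dispersion (spread relative to its mean). Retnlg, by comparison, had an SD of 1441 CPM around a mean of 1129 CPM over micro-dissected libraries. The simulated rates may therefore not carry over to the 9 genes.

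Micro-dissected cells were clustered without the 9 genes (scanpy 1.11.5, 2000 variable genes, 30 components, 15 neighbours, leidenalg 0.10.2 at resolution 1, seed 1). A transcript was counted as present above 0.5. For thinned shares, values were turned back into tags and each cell drawn to 1000. Intervals of shares are exact binomial and those of levels exact Poisson, at 95%, and a share of 0 is given with the floor of 3 counts; all cover counting error only. Named genes were the 9 members, for each list up to 3 called genes of highest mean CPM, the 10 genes with the highest correlation and the leading genes of a class; other list genes and finer clusters were named after their values were seen. Alternatives were library totals, DESeq2 1.42.0, no filter, other minimum depths, libraries left out, the per-library files, other clusterings and thinning. Micro-dissected and sorted cells were handled differently and in part sequenced on different instruments, per the labels' protocols, which cannot be told apart from the groups.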

Additional observations from a re-analysis of the deposited data

Results flagged for a closer look

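Among 4 sorted HSC libraries, 1 library each stood apart for Retnlg (12.6 CPM), Mmp9 (4.2 CPM) and Il1b (5.56 CPM), because the other 3 were at 0; these rest on 3, 1 and 1 transcripts. Over mature neutrophil-like cells in 8 libraries, 1 library stood apart for Csf3r (1689 CPM), for Il1b (990 CPM, replicate 15, mostly 1 cell), for BC100530 (577 CPM, replicate 9, mostly 1 cell) and for Stfa1 (245 CPM). Over eosinophil-like cells in 4 libraries, 1 library stood apart for Retnlg (10334 CPM) and for Mmp8 (30.9 CPM). Of 18 sets of values looked at, 9 held such a library, and chance alone marks about 1 in 20 sets of normally spread values, which levels with many zeros are not. Micro-dissected replicate 18, which entered only the alternative that used the per-library files, had 83 kept cells in its own file, with the 9 genes together at 1858 CPM and Retnlg at 1044 CPM; 57 cells had a transcript of any of the 9 and 8 were rich cells.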

How the results depend on the processing

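Of 98 values recomputed, 93 kept their direction and call or stayed within the allowed change, and none reversed. Over 12 alternatives, Retnlg (log2 fold change 6.24 to 10.38, adjusted p 1.10e-07 to 0.0373), Mmp8 (7.27 to 8.94, 6.55e-06 to 0.0369) and Mmp9 (5.70 to 8.43, 4.17e-06 to 0.0186) passed in all, and Csf3r (1.5 to 2.10, 5.71e-04 to 0.0518) in 11. The highest Retnlg and Mmp9 folds were those without sorted HSC replicate 3. No sorted transcript of either gene was left there, so the size of these folds is not read. Csf3r missed the threshold with at least 2000 transcripts per cell (1.5, adjusted p 0.0518). The number of called genes was 1106, against 2838 with no expression filter, where 15187 genes were tested, and 584 with at least 2000 transcripts; leaving out a sorted library gave 743 to 1454. Called genes of the lists numbered 29, against 44 with no filter, an alternative chosen after seeing the data. With no filter all 9 member genes were tested and the same number, 4, was called. The share of micro-dissected cells with a member transcript was 54.6%, or 37.2% when thinned. The share of member transcripts in mature neutrophil-like cells was 73.9%. It was lower in every alternative, between 51.6% and 70.5% under other clusterings, a minimum of 2000 transcripts and without micro-dissected replicate 9. The change allowed here was the spread between libraries (SD 34.6), which is wide and does not measure how far the share depends on the clustering. No paired analysis was possible because replicate numbers are only names, given in accession order. Depth limits the 5 sparse genes, and the contrast rests on 4 sorted libraries, of which 1 holds 2 cells.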
